A study of Rattus norvegicus with 9 samples.

Results

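In cultured rat aortic smooth muscle cells, 8 genes were chosen by their measured levels in these libraries, for RNA that was much lower after platelet-derived growth factor BB (PDGF-BB) or much higher when the small molecule PTUPB was given before it. They are Sned1, Scin, Kazn, Fam169b, Fam180a, Cdo1, Akr1c15 and Kng1, and the deposited file lists 32623 genes in all. All 8 passed the filter on low values, which 11197 genes passed. RNA-seq libraries numbered 3 in each of 3 groups of wild-type primary aortic smooth muscle cells. The PDGF-BB+PTUPB cells received 0.5 µM PTUPB for 2 h and then PDGF-BB for 24 h. The PDGF-BB cells received the growth factor for 24 h, at 10 ng/mL in the sample labels and 20 ng/mL in the series design, and Control cells received DMSO. Cells of every group were at passage 4 to 8, were starved of serum for 12 h and were then kept in 2% serum, so all are serially cultured cells outside the artery wall. The labels give no strain, and whether libraries of 1 group stem from different animals or dishes is not in them. A p-value here is thus set against the spread among libraries, and that spread could be technical.

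PDGF-BB is a mitogen that binds receptor tyrosine kinases on smooth muscle cells, and in the injured artery it is known to drive these cells to divide and migrate. PTUPB inhibits cyclooxygenase-2 and soluble epoxide hydrolase, enzymes that process arachidonic acid and its epoxides. The 8 genes belong to no single pathway. Scin encodes an actin-severing protein, Sned1 a glycoprotein of the extracellular matrix and Kazn a protein of cell junctions. Cdo1 and Akr1c15 encode metabolic enzymes, and Kng1 encodes kininogen, the precursor of the vasodilator peptide bradykinin.

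The 8 genes lie on 8 different chromosomes in the deposited file. The file gives Sned1 (ENSRNOG00000023548) at chr9:100380515-100437056, Scin (ENSRNOG00000004498) at chr6:59976003-60054279 and Kazn (ENSRNOG00000014322) at chr5:160639578-160742479. It gives Cdo1 (ENSRNOG00000000158) at chr18:40701984-40716686, Akr1c15 (ENSRNOG00000021735) at chr17:69835330-69862110 and Kng1 (ENSRNOG00000030387) at chr11:81421676-81444621. Fam169b (ENSRNOG00000022822) is at chr1:129255396-129334292 and Fam180a (ENSRNOG00000011750) at chr4:62844971-62860446. Sned1 and Fam169b are on the plus strand and the other 6 genes on the minus strand. These are rat positions whose build is not given in the sources used here, and they are not on the same footing as the promoter positions that follow.

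The 8 genes were chosen for large falls or rises, so their moving together is not a result. The starts of those with a single listed start are shown as a description. RefSeq's table of rat promoters (GRCr8, 250 bases before the start and 50 after) held 6 of the 8 genes, and Fam169b had 11 starts in it. The windows are chr9:101221280-101221579 on the plus strand for Sned1, chr6:62915238-62915537 on the minus strand for Scin and chr17:71117908-71118207 on the minus strand for Akr1c15. Those of Kng1 and Fam180a are chr11:91340099-91340398 and chr4:64975127-64975426, both on the minus strand. Capitals mark the letters that matched 1 of the 7 motifs searched.
Sned1: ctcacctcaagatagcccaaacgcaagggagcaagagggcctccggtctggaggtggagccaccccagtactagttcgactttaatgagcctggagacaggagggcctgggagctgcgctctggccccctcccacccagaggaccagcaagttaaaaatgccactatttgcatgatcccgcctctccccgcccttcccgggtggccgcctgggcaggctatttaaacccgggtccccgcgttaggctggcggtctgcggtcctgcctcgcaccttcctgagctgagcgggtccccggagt
Scin: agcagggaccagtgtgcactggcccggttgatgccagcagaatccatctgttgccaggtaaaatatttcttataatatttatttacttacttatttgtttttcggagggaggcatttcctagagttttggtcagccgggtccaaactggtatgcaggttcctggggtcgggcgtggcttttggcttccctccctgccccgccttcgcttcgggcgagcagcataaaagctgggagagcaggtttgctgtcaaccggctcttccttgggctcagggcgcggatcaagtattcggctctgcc
Akr1c15: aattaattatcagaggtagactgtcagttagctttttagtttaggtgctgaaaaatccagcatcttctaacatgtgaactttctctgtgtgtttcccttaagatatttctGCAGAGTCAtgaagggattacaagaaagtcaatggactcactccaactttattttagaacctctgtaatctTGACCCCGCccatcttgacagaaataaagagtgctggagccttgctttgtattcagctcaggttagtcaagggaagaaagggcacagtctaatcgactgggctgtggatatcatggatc
Kng1: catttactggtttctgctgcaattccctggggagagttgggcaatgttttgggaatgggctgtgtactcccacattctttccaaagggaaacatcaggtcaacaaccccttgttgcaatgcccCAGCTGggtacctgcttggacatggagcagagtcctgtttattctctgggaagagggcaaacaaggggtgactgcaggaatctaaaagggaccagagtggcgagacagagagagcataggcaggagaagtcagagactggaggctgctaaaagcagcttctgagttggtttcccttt
Fam180a: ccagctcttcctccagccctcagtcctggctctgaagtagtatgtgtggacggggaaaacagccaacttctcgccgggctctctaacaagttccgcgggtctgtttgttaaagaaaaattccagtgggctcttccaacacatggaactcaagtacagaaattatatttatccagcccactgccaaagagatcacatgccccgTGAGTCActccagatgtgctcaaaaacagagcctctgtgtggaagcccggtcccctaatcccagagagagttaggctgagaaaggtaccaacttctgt

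The 7 motifs were searched on both strands of the 6 windows, the Fam169b window being that of its first listed start, and no matches overlapped one another. The AP-1 motif TGANTCA, found in 7.33% of 27457 rat promoters, matched 1 of the 6, at 48 bases before the start of Fam180a. The E-box CAGCTG (15.1% of promoters) matched Kng1 at 127 bases before the start. The antioxidant response element TGACNNNGC (12.2%) matched Akr1c15 at 140 and at 69 bases before the start. The forkhead motif GTAAACA (3.76%), the CCAAT box (37.7%), the STAT motif TTCNNNGAA (8.68%) and the TATA box TATAAA (14.3%) matched none of the 6 windows. No motif was therefore held by more than 1 of them. GC content was 63.3% in Sned1, 56.0% in Fam169b, 53.3% in Scin, 50.7% in Kng1, 50.3% in Fam180a and 40.7% in Akr1c15, against a median of 52.3% over all the promoters.

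Counts over all genes summed to between 12729187 and 16911050 per library. Levels are in CPM, which are counts per library size, or as the deposited FPKM, which also divide by gene length and so allow genes to be compared. A count of 3 in 1 library corresponds to 0.179 to 0.231 CPM. Deviations of a library from its group followed gene length to differing degrees, with Spearman correlations across genes of -0.389 in Control replicate 2 and -0.381 in PDGF-BB replicate 3. They were 0.348 in Control replicate 1 and 0.350 in PDGF-BB replicate 2, and between -0.128 and 0.199 in the other 5 libraries. Where leaving out PDGF-BB replicate 3 or Control replicate 2 matters, those values are given. Markers of smooth muscle were abundant in all libraries, with the 10 listed genes summing to between 2210 and 2469 FPKM in PDGF-BB+PTUPB, 2172 and 2535 FPKM in PDGF-BB and 1744 and 2374 FPKM in Control. Tagln made up most of this sum, at 1518 FPKM as a mean over the libraries, and 8 of the 10 genes passed the filter. The endothelial markers Cdh5, Tie1, Emcn and Kdr, the leukocyte marker Ptprc, the pericyte marker Rgs5 and the Schwann cell marker Sox10 were listed at 0 in all 9 libraries. An exact 0 in this file can be a failed estimate, so these zeros do not show that such cells were absent. The highest genes of the Schwann cell, pericyte, macrophage and endothelial lists were Ncam1 (10.1 FPKM), Cspg4 (4.50 FPKM), Cd68 (3.31 FPKM) and Erg (0.353 FPKM), as means over the libraries.

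**Figure D1:**
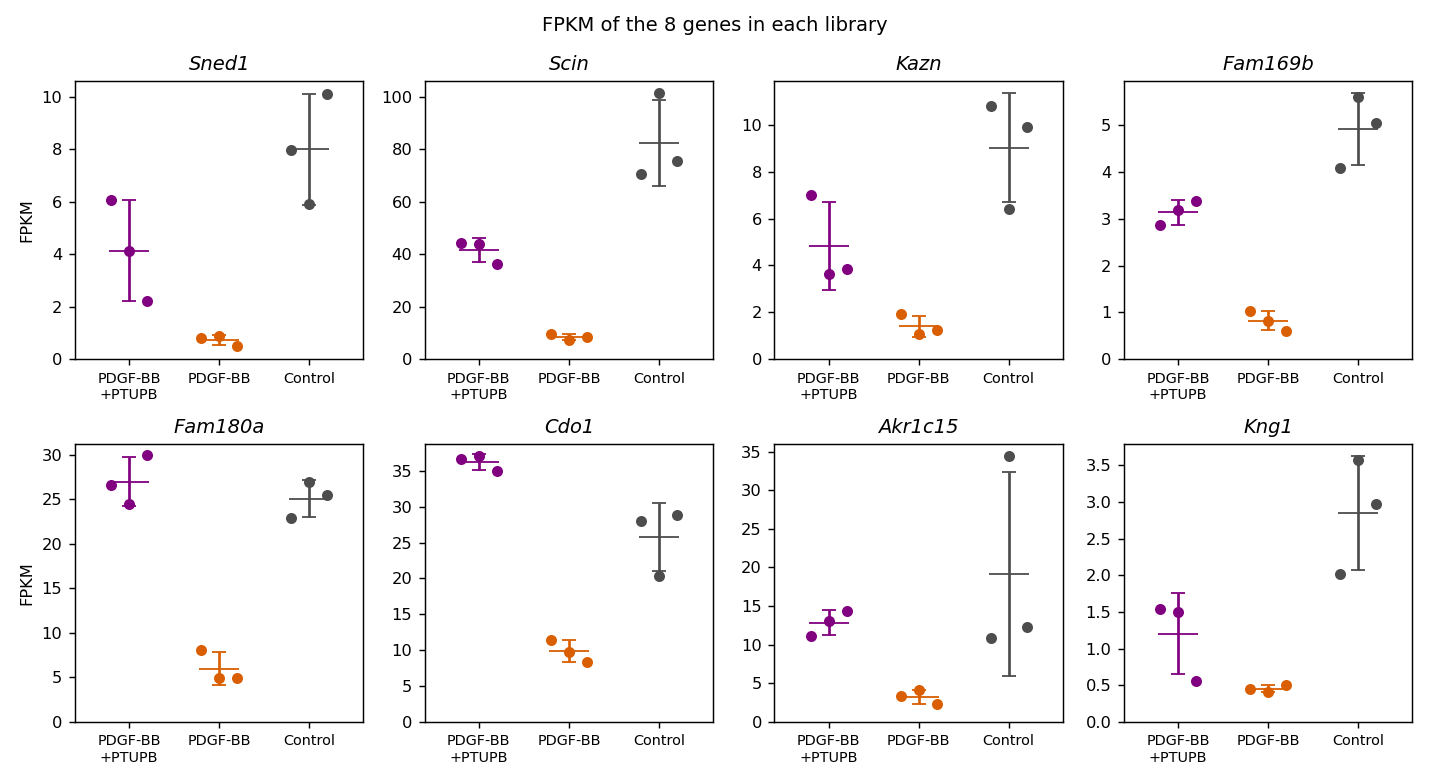
FPKM of each of the 8 genes (vertical axes, each from 0) in the 3 libraries of PDGF-BB+PTUPB, PDGF-BB and Control. Points are libraries, horizontal lines are group means and bars are SD (n = 3). In every panel the PDGF-BB libraries lie below those of the other 2 groups, from 0.41 to 0.50 FPKM for Kng1 up to 8.32 to 11.45 FPKM for Cdo1.

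In Control cells the 8 genes spanned a wide range of levels per length. Scin was the highest, at 82.4 ± 16.5 FPKM (SD, n = 3 in this and all other groups), followed by Cdo1 at 25.8 ± 4.70 FPKM, Fam180a at 25.1 ± 2.06 FPKM and Akr1c15 at 19.2 ± 13.2 FPKM. Kazn at 9.04 ± 2.32 FPKM and Sned1 at 8.01 ± 2.11 FPKM came next, then Fam169b at 4.92 ± 0.774 FPKM and Kng1 at 2.85 ± 0.782 FPKM. Neighbours in this order overlapped in their libraries except for Akr1c15 and Kazn, Sned1 and Fam169b, Fam169b and Kng1, and Scin and Cdo1. With PDGF-BB, Cdo1 became the highest of the 8 at 9.85 ± 1.57 FPKM and Scin came second at 8.28 ± 1.07 FPKM, their libraries overlapping. With PTUPB before PDGF-BB, Scin was again the highest at 41.5 ± 4.62 FPKM and Cdo1 next at 36.2 ± 1.11 FPKM, their libraries again overlapping. An FPKM of at least 1 was reached in all 9 libraries by 5 of the 8 genes, while Fam169b reached it in 7 libraries, Sned1 in 6 and Kng1 in 5.

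The comparison of PDGF-BB with Control and that of PDGF-BB+PTUPB with PDGF-BB chose these genes, so their values there are a description with no test. In both comparisons the libraries of the groups did not overlap for 8 of 8 genes. Over all tested genes the groups did not overlap for 44.6% of genes with PDGF-BB against Control and for 40.7% with PDGF-BB+PTUPB against PDGF-BB. Of all tested genes, 15.8% were called lower with PDGF-BB than in Control and 8.28% were called higher with PDGF-BB+PTUPB than with PDGF-BB. By size of the difference, the genes took places 2 (Sned1) to 126 (Cdo1) among the falls and 4 (Sned1) to 62 (Kng1) among the rises of the 11197 tested genes. The median log2 fold change of the 8 was -2.69 with PDGF-BB against Control and 2.01 with PDGF-BB+PTUPB against PDGF-BB, beside medians of -0.02 and 0.01 over all tested genes. On the log2(FPKM + 1) scale, which compresses low genes, the differences were smaller for Sned1, Kazn, Fam169b and Kng1. With PDGF-BB against Control they were -2.36, -2.05, -1.70 and -1.39 in that order. With PDGF-BB+PTUPB against PDGF-BB they were 1.5, 1.25, 1.19 and 0.56. As these are bulk libraries, fewer cells that make an RNA and less of that RNA per cell cannot be told apart.

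**Figure D2:**
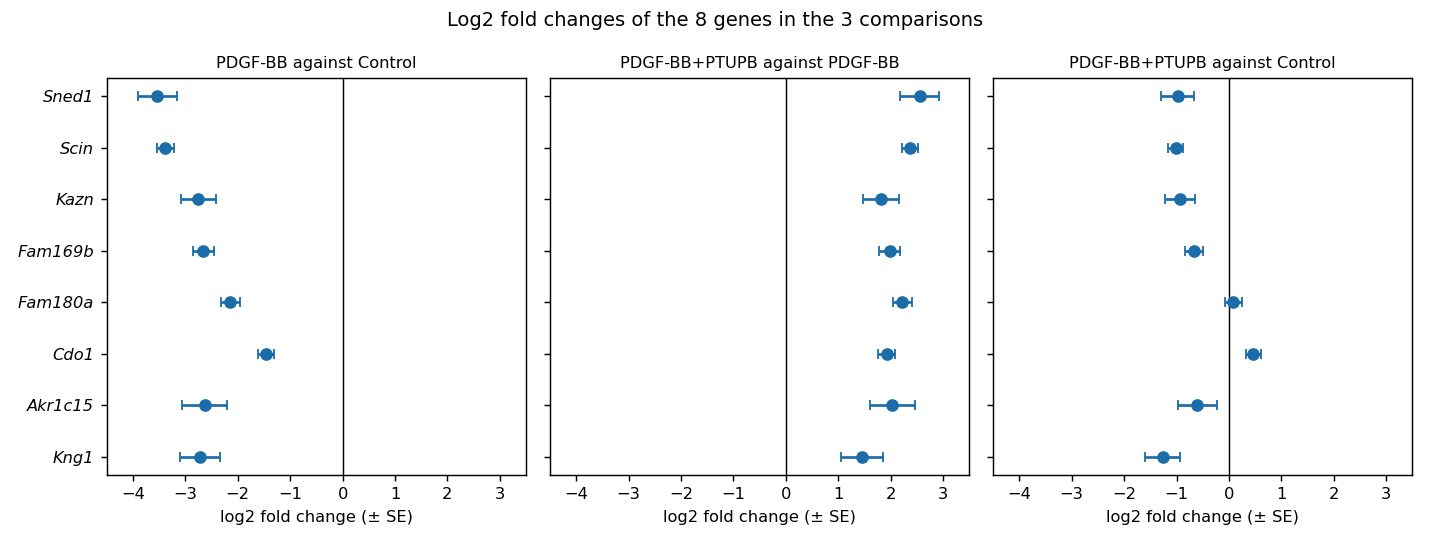
Log2 fold changes ± SE of the 8 genes from edgeR in the 3 comparisons, with 0 marked by a vertical line. The left and middle panels are the comparisons that chose the genes; in the right panel, PDGF-BB+PTUPB against Control, the 8 genes lie between -1.27 (Kng1) and 0.46 (Cdo1).

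Among the genes of cell structure, Scin encodes scinderin, or adseverin, a calcium-dependent relative of gelsolin that severs and caps actin filaments. Scin had 96.1, 95.2 and 77.9 CPM in the PDGF-BB+PTUPB libraries, 19.7, 15.0 and 17.5 CPM in the PDGF-BB libraries and 157, 219 and 166 CPM in the Control libraries. The 3 groups formed separate bands, with PDGF-BB lowest, PDGF-BB+PTUPB between and Control highest. The PDGF-BB mean was 10.4-fold lower than Control (log2 -3.38 ± 0.16), and the PDGF-BB+PTUPB mean was 5.16-fold higher than PDGF-BB (log2 2.37 ± 0.16).

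Sned1 encodes a matrix glycoprotein with a NIDO domain, named after nidogen, together with EGF-like and sushi domains. It had 34.2, 23.2 and 12.4 CPM with PDGF-BB+PTUPB, 4.39, 4.69 and 2.80 CPM with PDGF-BB and 46.5, 33.3 and 58.2 CPM in Control. The PDGF-BB+PTUPB libraries were widely spread, and the highest of them passed the lowest Control library. Sned1 had the largest difference of the 8 genes in both choosing comparisons, 11.6-fold lower with PDGF-BB than in Control (log2 -3.53 ± 0.38) and 5.87-fold higher with PDGF-BB+PTUPB than with PDGF-BB (log2 2.55 ± 0.38). Without PDGF-BB+PTUPB replicate 3, its lowest library in that group, the last difference was 2.85 ± 0.30 on the log2 scale.

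Kazn encodes kazrin, known from human keratinocytes as a partner of periplakin at cell junctions. It had 14.9, 7.71 and 8.08 CPM with PDGF-BB+PTUPB, 3.93, 2.16 and 2.57 CPM with PDGF-BB and 23.7, 13.6 and 21.4 CPM in Control. Here too 1 PDGF-BB+PTUPB library, replicate 1, lay among the Control libraries while the others lay below them. The PDGF-BB mean was 6.75-fold lower than Control (log2 -2.75 ± 0.33) and the PDGF-BB+PTUPB mean 3.53-fold higher than PDGF-BB (log2 1.82 ± 0.34).

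Of the metabolic enzymes, Cdo1 encodes cysteine dioxygenase, which oxidises cysteine to cysteine sulfinate on the way to taurine and sulfate. Cdo1 had 56.0, 56.6 and 53.1 CPM with PDGF-BB+PTUPB, 17.0, 14.3 and 12.4 CPM with PDGF-BB and 44.2, 31.1 and 45.0 CPM in Control. Every PDGF-BB+PTUPB library was above every Control library, and these libraries lay close together, with a coefficient of variation of 3.36%. Its difference between PDGF-BB and Control was the smallest of the 8, 2.75-fold lower (log2 -1.46 ± 0.16), while the PDGF-BB+PTUPB mean was 3.79-fold higher than PDGF-BB (log2 1.92 ± 0.16).

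Akr1c15 encodes an aldo-keto reductase, an NADPH-dependent enzyme that reduces carbonyl compounds. It had 14.9, 17.5 and 19.1 CPM with PDGF-BB+PTUPB, 4.39, 5.21 and 2.95 CPM with PDGF-BB and 15.0, 46.0 and 16.7 CPM in Control. Control replicate 2 was far above the other 2 Control libraries, which lay within the range of PDGF-BB+PTUPB, and the coefficient of variation in Control was 67.3%. The PDGF-BB mean was 6.21-fold lower than Control with all libraries (log2 -2.63 ± 0.43) and 3.78-fold lower without Control replicate 2 (log2 -1.92 ± 0.21). The PDGF-BB+PTUPB mean was 4.09-fold higher than PDGF-BB (log2 2.03 ± 0.43). Members of this family are close in sequence, and how the counting shared reads between them is not stated, so the values of Akr1c15 are uncertain to that extent.

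Kng1, the kininogen gene, was the lowest of the 8. It had 56, 66 and 20 counts with PDGF-BB+PTUPB, 15, 14 and 17 counts with PDGF-BB and 74, 159 and 121 counts in Control. On the CPM scale these were 4.08, 3.98 and 1.48 with PDGF-BB+PTUPB, 1.16, 1.04 and 1.29 with PDGF-BB and 5.54, 9.47 and 8.04 in Control. PDGF-BB+PTUPB replicate 3 lay just above the PDGF-BB libraries, and all 3 PDGF-BB+PTUPB libraries lay below all 3 Control libraries. The PDGF-BB mean was 6.60-fold lower than Control (log2 -2.72 ± 0.38) and the PDGF-BB+PTUPB mean 2.74-fold higher than PDGF-BB (log2 1.45 ± 0.39), or 1.79 ± 0.28 on the log2 scale without PDGF-BB+PTUPB replicate 3. Kininogen genes of the rat are close copies of one another, so reads may be shared between them.

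Fam169b and Fam180a are named for their sequence families. Fam169b had 8.67, 9.64 and 10.2 CPM with PDGF-BB+PTUPB, 3.00, 2.38 and 1.81 CPM with PDGF-BB and 12.8, 17.0 and 15.6 CPM in Control, which are 3 separate bands as for Scin. Its PDGF-BB mean was 6.30-fold lower than Control (log2 -2.66 ± 0.19) and its PDGF-BB+PTUPB mean 3.95-fold higher than PDGF-BB (log2 1.98 ± 0.20). Fam180a had 46.6, 42.9 and 52.3 CPM with PDGF-BB+PTUPB, 13.8, 8.27 and 8.39 CPM with PDGF-BB and 41.5, 47.3 and 45.5 CPM in Control. For Fam180a the PDGF-BB+PTUPB and Control libraries were mixed and only the PDGF-BB libraries stood apart. Its PDGF-BB mean was 4.41-fold lower than Control (log2 -2.14 ± 0.18) and its PDGF-BB+PTUPB mean 4.66-fold higher than PDGF-BB (log2 2.22 ± 0.18). The paralog Fam169a was near 0, at 0.04 FPKM with PDGF-BB+PTUPB, 0.05 FPKM with PDGF-BB and 0.13 FPKM in Control.

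The comparison of PDGF-BB+PTUPB with Control asks how near to untreated cells each gene came. It shares the PDGF-BB+PTUPB and Control libraries with the comparisons that chose the genes, so it is not independent of the choice. Mean CPM with PDGF-BB+PTUPB was below Control for 6 of the 8 genes and above it for Fam180a and Cdo1, so the name restored holds for the 8 to different degrees. The groups did not overlap for 4 of 8 genes, Scin, Fam169b and Kng1 lying below Control and Cdo1 above it, against 21.5% of all tested genes. By edgeR's quasi-likelihood test with Benjamini-Hochberg adjustment over all tested genes, 1 of the 8 genes was called, beside 2.21% of all tested genes, of which 1.89% were called higher and 0.313% lower. The median log2 fold change of the 8 was -0.80, beside -0.01 over all tested genes.

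Scin was the gene called, and it fell short of Control. It averaged 89.7 ± 10.2 CPM with PDGF-BB+PTUPB and 181 ± 33.4 CPM in Control, a log2 fold change of -1.01 ± 0.14 (edgeR adjusted p = 0.00542), with all 3 PDGF-BB+PTUPB libraries below all 3 Control libraries. Its level with PDGF-BB+PTUPB was 49.6% of Control, with a 95% interval from the same fit of 39.7% to 61.8%. Over the 18 alternative analyses the adjusted p of Scin ranged from 1.15e-08 to 0.0357.

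The other 7 genes did not pass the test, which does not show that they reached the Control level. Kng1 averaged 3.18 ± 1.47 CPM with PDGF-BB+PTUPB and 7.68 ± 1.99 CPM in Control, a log2 fold change of -1.27 ± 0.34 (edgeR adjusted p = 0.104). Sned1 differed by -0.98 ± 0.32 (edgeR adjusted p = 0.192), Kazn by -0.94 ± 0.29 (edgeR adjusted p = 0.177) and Fam169b by -0.67 ± 0.17 (edgeR adjusted p = 0.0860). For these 4 genes the 95% intervals, which are not adjusted for the number of genes, stayed below Control: 24.8% to 69.6% of it for Kng1, 31.0% to 82.7% for Sned1, 33.2% to 82.2% for Kazn and 48.4% to 81.3% for Fam169b. DESeq2 called 4 of the 8, Scin, Sned1, Fam169b and Kng1, all lower than Control.

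Cdo1 averaged 55.3 ± 1.86 CPM with PDGF-BB+PTUPB and 40.1 ± 7.81 CPM in Control, a log2 fold change of 0.46 ± 0.15 (edgeR adjusted p = 0.179), with an interval of 110.0% to 173% of Control. Without Control replicate 2, the lowest Control library for Cdo1, the log2 fold change was 0.31 ± 0.12. Fam180a averaged 47.3 ± 4.73 CPM with PDGF-BB+PTUPB and 44.8 ± 2.99 CPM in Control, a log2 fold change of 0.08 ± 0.16 (edgeR adjusted p = 0.883). Its interval was 82.3% to 135% of Control. Akr1c15 averaged 17.1 ± 2.15 CPM with PDGF-BB+PTUPB and 25.9 ± 17.4 CPM in Control, a log2 fold change of -0.60 ± 0.37 (edgeR adjusted p = 0.538), with an interval of 37.1% to 117%. Its direction rests on Control replicate 2, since without that library the log2 fold change was 0.11 (edgeR adjusted p = 0.800). That of Fam180a was -0.0066 without PDGF-BB+PTUPB replicate 3.

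The part of the lost level that came back can be read library by library, with the PDGF-BB mean at 0% and the Control mean at 100% on the CPM scale. This share uses the comparisons that chose the genes and is a description. It was 159% for Cdo1, 107% for Fam180a, 59.7% for Akr1c15, 55.8% for Fam169b, 45.9% for Sned1, 44.2% for Scin, 44.0% for Kazn and 30.9% for Kng1. When Control replicate 2 was left out, it was 111% for Akr1c15 and 135% for Cdo1. The PDGF-BB+PTUPB libraries agreed closely for Scin, at 48.1%, 47.6% and 37.0%, and for Fam169b, at 49.2%, 56.8% and 61.4%. They were far apart for Sned1, at 71.8%, 45.9% and 20.0%, for Kazn, at 71.9%, 29.0% and 31.2%, and for Kng1, at 44.7%, 43.1% and 4.93%. No PDGF-BB+PTUPB library was the lowest for every gene: replicate 3 had the lowest share for Sned1, Scin, Cdo1 and Kng1 and the highest for Fam169b, Fam180a and Akr1c15.

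**Figure D3:**
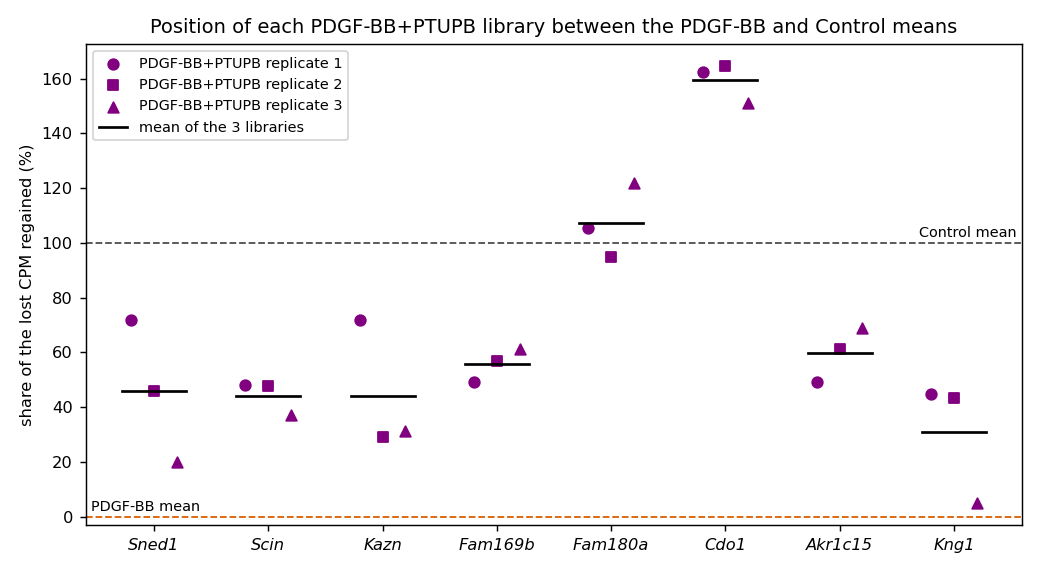
Share of the lost CPM regained (vertical axis, %) by each of the 3 PDGF-BB+PTUPB libraries for the 8 genes, with the PDGF-BB mean at 0% and the Control mean at 100% (dashed lines). Markers are replicates and bars are their means; Cdo1 lies at 151% to 165% and Kng1 at 4.93% to 44.7%.

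Genes that fell as far as these were compared in the share they regained. Of the tested genes, 40 were called by edgeR with a log2 fold change of -2 or lower between PDGF-BB and Control, 7 of them among the 8 and 33 others. Cdo1, at -1.46, was the gene outside that limit, and Fam180a at -2.14 was the nearest inside it. On the log2 scale all 8 genes, Cdo1 at 133% included, regained a median of 72.5% of their difference from Control. The 33 others regained a median of 69.5%, with quartiles of 50.0% and 76.9%. The 33 others were taken by their fall and the 8 genes by their fall or rise. These shares are thus a description and do not set the 8 genes apart. Of the 33 others, 8 were called lower than Control with PDGF-BB+PTUPB, beside 0.313% of all tested genes. The 33 were taken by their fall from the same Control libraries, so this count is not independent of that choice.

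The genes whose pattern over the 9 libraries was nearest to the mean profile of the 8 were found by the root mean square difference of log2 CPM, each gene centred on its own mean. The nearest was Wnt4, a Wnt ligand, at 0.22. It averaged 11.9 FPKM with PDGF-BB+PTUPB, 3.64 FPKM with PDGF-BB and 16.8 FPKM in Control. Cemip, which takes part in the breakdown of hyaluronan, followed at 0.27, then Rcan2, a regulator of calcineurin, and Cx3cl1, the chemokine fractalkine, both at 0.29. Parm1 (0.30), the leukaemia inhibitory factor receptor gene Lifr (0.32), the potassium channel gene Kcnd3 (0.32), the interleukin-33 receptor gene Il1rl1 (0.34), the sodium, potassium and calcium exchanger gene Slc24a3 (0.36) and Enpp2, which encodes autotaxin (0.37), completed the 10 nearest. This measure was computed over the libraries that chose the 8 genes, so it describes likeness only.

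Taken 1 by 1, the genes had different neighbours in this measure. Il1rl1 and Parm1 were the nearest to both Sned1 (0.36 and 0.47) and Kazn (0.23 and 0.21), and Cx3cl1 and Il1rl1 were the nearest to Scin (0.40 and 0.44). Wnt4 and Cx3cl1 were the nearest to Fam169b (both 0.30), and Rcan2 and Wnt4 to Fam180a (both 0.32). Cdo1 was nearest to the dopamine receptor gene Drd1 and to Fbxo32, the ubiquitin ligase atrogin-1 (both 0.26), whose log2 fold changes with PDGF-BB+PTUPB against Control were 0.02 and -0.11. Akr1c15 was nearest to Enpp2 (0.34) and the aldehyde oxidase gene Aox1 (0.36). Kng1 was nearest to Chi3l1, a chitinase-like secreted protein gene, and C4bpa, a complement regulator gene (both 0.32), which like Kng1 stood at log2 fold changes of -1.20 and -1.29 with PDGF-BB+PTUPB against Control.

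Genes that work with each of the 8 were counted from lists, with the 8 left out, in the fit over all genes. Of all tested genes, 33.2% were called with PDGF-BB against Control, 17.3% higher and 15.8% lower. With PDGF-BB+PTUPB against PDGF-BB, 18.3% were called, 8.28% higher and 10.0% lower. The counts by direction in each list below are to be read beside these shares. These comparisons share the PDGF-BB libraries, so opposite signs in them are not separate evidence, and the values are set side by side. In the comparison of PDGF-BB+PTUPB with Control, 0 of the 71 tested genes of these lists were called by edgeR, 15 had an unadjusted p under 0.05 and DESeq2 called 6.

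Scin went the other way from the actin regulators that were called. Of 17 tested genes of the gelsolin family and of actin filament turnover, 5 rose and 0 fell with PDGF-BB by edgeR, where 1 had a lower level at an unadjusted p under 0.05 and DESeq2 called 1 lower. With PDGF-BB+PTUPB against PDGF-BB, 0 rose and 5 fell, and 0 were higher at an unadjusted p under 0.05 or by DESeq2. The filament-capping gene Capg, a close relative of Scin, averaged 137 CPM with PDGF-BB+PTUPB, 189 CPM with PDGF-BB and 111 CPM in Control. Its log2 fold change was 0.77 ± 0.09 with PDGF-BB against Control (edgeR adjusted p = 0.000165) and -0.46 ± 0.09 with PDGF-BB+PTUPB against PDGF-BB (edgeR adjusted p = 0.00671). The others were the twinfilin gene Twf2 (0.89 and -0.72 in the same order), the profilin gene Pfn1 (0.63 and -0.57), the thymosin gene Tmsb4x (0.52 and -0.52) and the cofilin gene Cfl1 (0.34 and -0.43). Gelsolin itself, Gsn, was more abundant than Scin and did not pass the test, at 119 FPKM with PDGF-BB+PTUPB, 126 FPKM with PDGF-BB and 115 FPKM in Control (log2 0.06 ± 0.08 with PDGF-BB against Control, edgeR adjusted p = 0.555).

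Beside Sned1, 9 tested genes encode NIDO-domain matrix proteins or integrins that bind the RGD motif. Nid2, a nidogen of the basement membrane, had 3.88, 4.85 and 5.22 FPKM with PDGF-BB+PTUPB, 13.2, 14.9 and 14.0 FPKM with PDGF-BB and 3.97, 1.74 and 2.61 FPKM in Control, the opposite order to Sned1. Its log2 fold change was 2.27 ± 0.24 with PDGF-BB against Control (edgeR adjusted p = 0.000103) and -1.55 ± 0.23 with PDGF-BB+PTUPB against PDGF-BB (edgeR adjusted p = 0.00245). Of the integrin genes, Itga8, of the integrin that binds nephronectin, fell with PDGF-BB (-0.94) and rose with PDGF-BB+PTUPB (0.72), while Itga5, of the fibronectin receptor, rose (0.57) and fell (-0.51). Susd2 fell with PDGF-BB (-0.32) and rose with PDGF-BB+PTUPB (0.47). The fibronectin gene Fn1 was listed at 0 in all 9 libraries, which in such cells can be a failed estimate, and was not tested.

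Of 10 tested partners of kazrin and genes of the desmosome and cornified envelope, 4 rose and 2 fell with PDGF-BB. With PDGF-BB+PTUPB against PDGF-BB, 2 rose and 3 fell. The genes that moved as Kazn did encode small GTPases that lower contractility, Rnd3 (-1.05 with PDGF-BB, 0.49 with PDGF-BB+PTUPB against PDGF-BB) and Rnd1 (-0.71 and 0.68). The genes that moved the other way encode junction and plaque proteins, the periplakin gene Ppl (0.66 and -0.77) and the plakophilin genes Pkp4 (0.91 and -0.80) and Pkp1 (0.53 and -0.47). Arvcf rose with PDGF-BB by 0.61 on the log2 scale.

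In cysteine and taurine metabolism, 16 genes beside Cdo1 were tested, of which 4 rose and 3 fell with PDGF-BB and 2 rose and 3 fell with PDGF-BB+PTUPB against PDGF-BB. The taurine transporter gene Slc6a6 had 48.4, 49.6 and 43.6 FPKM with PDGF-BB+PTUPB, 30.2, 28.5 and 32.6 FPKM with PDGF-BB and 68.7, 42.5 and 71.0 FPKM in Control (log2 -1.07 ± 0.17 with PDGF-BB against Control, edgeR adjusted p = 0.00125, and 0.68 ± 0.17 with PDGF-BB+PTUPB against PDGF-BB, edgeR adjusted p = 0.0240). Csad encodes cysteine sulfinate decarboxylase, the enzyme after Cdo1 on the way to taurine, and changed by -0.59 ± 0.14 with PDGF-BB (edgeR adjusted p = 0.00892) and by 0.52 ± 0.14 with PDGF-BB+PTUPB against PDGF-BB (edgeR adjusted p = 0.0302). The cystine transporter gene Slc7a11 fell with PDGF-BB (-0.86), and its value with PDGF-BB+PTUPB against PDGF-BB was 0.37 (edgeR adjusted p = 0.425). The aspartate aminotransferase genes Got1 and Got2 rose with PDGF-BB (0.66 and 0.81) and fell with PDGF-BB+PTUPB against PDGF-BB (-0.55 and -0.64). The glutathione synthetase gene Gss moved in the same directions as these, and Ggt7 rose with PDGF-BB.

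Akr1c15 differed in direction from most tested aldo-keto reductases. Of 7 others, 5 rose with PDGF-BB, Akr1c12 (1.70), Akr1b8 (0.89), Akr1e2 (0.83), Akr1b1 and Akr1a1, and Akr7a2 fell (-0.76). With PDGF-BB+PTUPB against PDGF-BB, Akr1b8 fell (-0.68) and 0 rose by edgeR, with 1 higher both at an unadjusted p under 0.05 and by DESeq2. The number called there ranged from 0 to 3 over the alternative analyses. The adjacent gene Akr1c14, which lies 8.22 kb from Akr1c15 in the deposited coordinates, had 4.99, 4.15 and 7.04 FPKM with PDGF-BB+PTUPB, 4.04, 3.71 and 3.46 FPKM with PDGF-BB and 4.13, 12.4 and 4.94 FPKM in Control. As for Akr1c15, Control replicate 2 was the highest library, and the log2 fold change with PDGF-BB against Control was -1.01 ± 0.37 (edgeR adjusted p = 0.0583).

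Around Kng1, the kallikreins Klkb1 (plasma) and Klk1 (tissue), which release kinins from kininogen, and the contact factor F12 were listed at 0 in all 9 libraries. As for Fn1, an exact 0 in this file can be a failed estimate, so these zeros do not show that the genes are silent. Both bradykinin receptors were detected. Bdkrb2, the constitutive receptor, had 2.77, 2.03 and 2.04 FPKM with PDGF-BB+PTUPB, 4.30, 4.62 and 6.32 FPKM with PDGF-BB and 2.53, 2.39 and 2.93 FPKM in Control, so that its PDGF-BB libraries were the highest, in contrast to Kng1. It rose with PDGF-BB by 0.89 ± 0.18 (edgeR adjusted p = 0.00421) and changed by -1.12 ± 0.18 with PDGF-BB+PTUPB against PDGF-BB (edgeR adjusted p = 0.00350). Bdkrb1, the inducible receptor, changed by -0.64 ± 0.13 with PDGF-BB (edgeR adjusted p = 0.00330). In all, 3 of 12 tested genes rose and 4 fell with PDGF-BB, and 2 rose and 3 fell with PDGF-BB+PTUPB against PDGF-BB. Serping1, the inhibitor of plasma kallikrein, moved as Kng1 did (-1.26 with PDGF-BB, 0.80 with PDGF-BB+PTUPB against PDGF-BB). Among the peptidases of the list, Prcp (1.00 and -0.60) and Thop1 (0.87 and -0.61) moved the other way, Mme (-0.96) and Ece1 (-0.50) fell with PDGF-BB, and Ece2 rose with PDGF-BB+PTUPB (0.38).

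**Figure D4:**
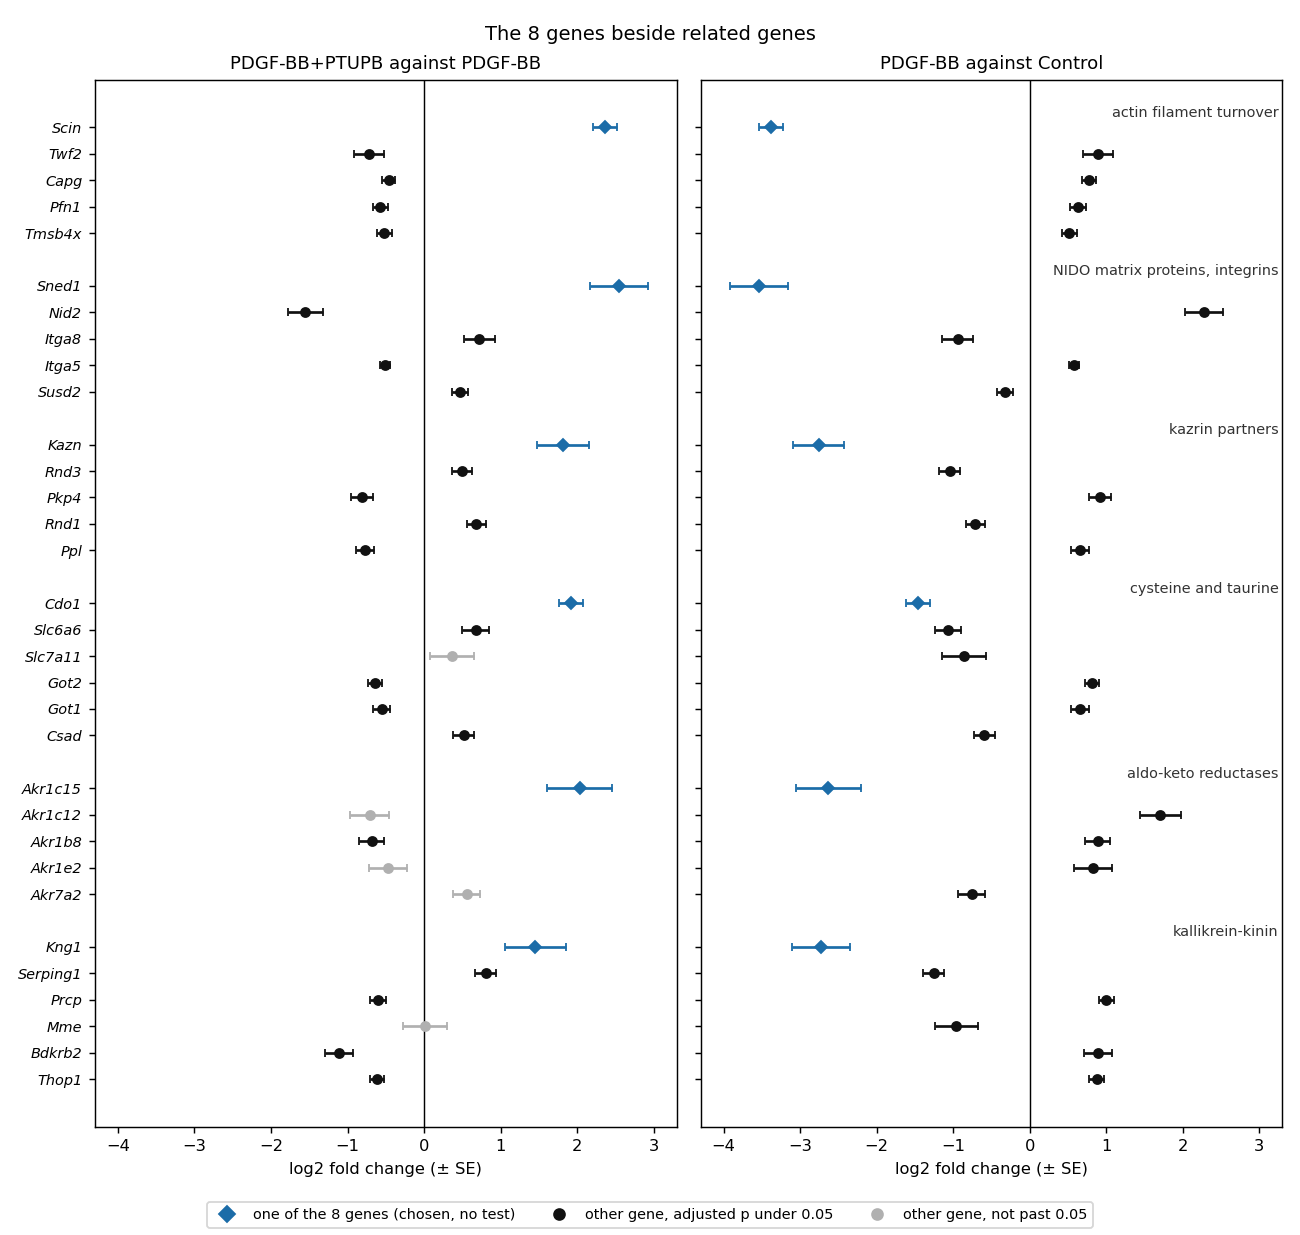
Log2 fold changes ± SE of 6 of the 8 genes (blue diamonds) and of related genes (circles, black where the edgeR adjusted p was under 0.05, grey otherwise), with PDGF-BB+PTUPB against PDGF-BB on the left and PDGF-BB against Control on the right. Related genes lie on both sides of 0 in both panels, Nid2 being the farthest from it at -1.55 on the left and 2.27 on the right.

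The nearest tested gene on each side of the 8 was also read, 16 genes in all, to see whether neighbours on the chromosome moved too. With PDGF-BB against Control, 1 rose and 5 fell, with a median of -0.13. Over all tested genes, 17.3% were called higher and 15.8% lower in that comparison, so calls among neighbours do not by themselves show shared regulation. The neighbours of Kazn both fell, Tmem51 by 0.82 and Prdm2 by 0.64 on the log2 scale, although Prdm2 lies 1028 kb away. Igf1r beside Fam169b (-0.66), Net1 beside Akr1c15 (-0.50) and Eif4a2 beside Kng1 (-0.46) fell as well, and Dnajb11, on the other side of Kng1, rose (0.22). Net1 (0.55) and Eif4a2 (0.53) rose with PDGF-BB+PTUPB against PDGF-BB, and Arl4a, beside Scin (-0.68), and Dnajb11 (-0.41) fell. Over all tested genes, 8.28% were called higher and 10.0% lower there. No neighbour moved as far as the gene it adjoined, but the 8 genes were chosen for large differences, which largely fixed that outcome. Mterf4, 3.43 kb from Sned1, and Atg12, 5.11 kb from Cdo1, did not pass the test in either comparison.

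Markers of other cells that a culture of aortic cells could hold moved with the 8 genes in part. The adventitial fibroblast list summed to between 1112 and 1292 FPKM in PDGF-BB+PTUPB, 662 and 990 FPKM in PDGF-BB and 1110 and 1725 FPKM in Control. Of its 9 genes in the file, 6 were tested, and Scara5 (-1.44), Dpep1 (-1.06), Pdgfra (-0.97) and Col14a1 (-1.93) fell with PDGF-BB, with log2 fold changes of 1.11, 0.80, 0.61 and 1.47 with PDGF-BB+PTUPB against PDGF-BB, all called. The other tested genes were Lum, at 614 FPKM with PDGF-BB+PTUPB, 522 FPKM with PDGF-BB and 671 FPKM in Control, and Pi16, at 3.16, 2.92 and 3.14 FPKM in the same groups, and neither passed the test. Dpt, Dpp4 and Cd34 were at or near 0. The mesothelial and epithelial list summed to between 41.0 and 46.3 FPKM in PDGF-BB+PTUPB, 32.3 and 35.5 FPKM in PDGF-BB and 47.6 and 52.5 FPKM in Control. Of its 4 tested genes, Lrrn4 (-1.44), Wt1 (-0.78) and Msln (-0.35) fell with PDGF-BB, Lrrn4 (1.00) and Wt1 (0.78) rose with PDGF-BB+PTUPB against PDGF-BB, while Krt8, at 1.06 FPKM with PDGF-BB+PTUPB, 1.04 FPKM with PDGF-BB and 1.25 FPKM in Control, did not pass the test. Upk3b was not tested, at 0.563 FPKM with PDGF-BB+PTUPB, 0.110 FPKM with PDGF-BB and 1.83 FPKM in Control, and Epcam, Cdh1 and Krt18 were at or near 0.

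The remaining lists were low. Macrophage markers summed to between 4.24 and 5.72 FPKM in PDGF-BB+PTUPB, 4.28 and 4.34 FPKM in PDGF-BB and 4.09 and 6.67 FPKM in Control, and of 2 tested genes Lyz2 fell with PDGF-BB (-1.80) and rose with PDGF-BB+PTUPB (1.61), while Cd163 and C1qa were listed at 0. Pericyte markers summed to 9.23 to 10.0 FPKM in PDGF-BB+PTUPB, 10.8 to 12.6 FPKM in PDGF-BB and 9.35 to 10.5 FPKM in Control. Of 3 tested pericyte genes, Cspg4 was called higher with PDGF-BB, while Kcnj8 and Abcc9 were called lower. With PDGF-BB+PTUPB against PDGF-BB, 0 of these were called. Schwann cell markers summed to 8.33 to 12.0 FPKM in PDGF-BB+PTUPB, 12.7 to 18.0 FPKM in PDGF-BB and 8.03 to 8.91 FPKM in Control. Endothelial markers reached at most 0.78 FPKM in sum and adipocyte markers at most 0.35 FPKM. Of the 8 tested smooth muscle markers, Mylk, Myh11, Acta2 and Lmod1 fell with PDGF-BB and Synpo2 rose, and Mylk and Myh11 rose with PDGF-BB+PTUPB against PDGF-BB. The part of these other cells in the values of the 8 genes was not tested.

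The libraries of a group were also compared by how many of the 8 genes lay above the group mean on the log2 scale. In PDGF-BB+PTUPB replicates 1 to 3 these were 5, 6 and 3 of the 8, beside 48.9%, 51.9% and 50.2% of all tested genes. In PDGF-BB replicates 1 to 3 they were 7, 3 and 2 of the 8, beside 50.0%, 45.2% and 56.6%, and in Control replicates 1 to 3 they were 3, 5 and 6 of the 8, beside 50.1%, 51.3% and 50.7%. When PDGF-BB replicate 3 and Control replicate 2 were left out, edgeR called 5 of the 8 between PDGF-BB+PTUPB and Control, with Scin, Sned1, Kazn and Fam169b lower and Cdo1 higher, in a comparison where 1345 genes in all were then called, against 247 with all libraries.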

How the data were processed

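RNA-seq was read from 9 libraries, 3 per group, grouped by the sample labels. Per the labels' protocols, poly(A) RNA was primed at random and sequenced paired-end. Per the submitters' processing notes, cutadapt 1.9.1, HISAT2 2.0.1 and HTSeq 0.6.1 were used, and the build named is mm10, a mouse build, although the gene identifiers are rat. The strand used in counting is not given in the sources used here. The file deposited by the authors holds expected counts for 32623 genes, of which 978 have a value that is not whole (0 of the 8 genes). The authors also deposited FPKM, and FPKM recomputed from counts and exonic lengths lay within 0.006 of them for 100% of values.

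A gene was tested where 3 or more of the 9 libraries reached an FPKM of 1 (11197 genes). Expected counts were rounded and fitted with edgeR 4.0.16 in R 4.3.3 (TMM scaling, quasi-likelihood F test, group only, all libraries in 1 fit, two-sided), with Benjamini-Hochberg adjustment over all tested genes and calls at an adjusted p under 0.05. The SE of a log2 fold change is its size divided by the square root of F. The biological coefficient of variation was 0.137. Replicates of a group differed beyond counting error (chi-square per degree of freedom 6.10 to 38.6). Alternatives were other scalings and filters, DESeq2 1.42.0, limma 3.58.1 on log2(FPKM + 1) and log2(FPKM + 0.1), a replicate term and leaving libraries out.

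The 8 genes, the gene lists and the markers were chosen with earlier results of these data known. Named are the 8 genes, up to 4 called members of each list per comparison by size, with the higher group averaging an FPKM of 2 or more, and the nearest genes by pattern; other called list genes, neighbours and markers were named after their values were seen. Listed symbols without a value in the file were not analysed here.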

Additional observations from a re-analysis of the deposited data

How the results depend on the processing

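Over the 18 alternatives, the log2 fold changes of the 8 genes moved by less than the spread between replicates in 135 of 144 cases with PDGF-BB against Control and 139 of 144 with PDGF-BB+PTUPB against PDGF-BB. The cases that moved more were, in the first comparison, Akr1c15 (-1.92 without Control replicate 2, -1.72 without it and PDGF-BB replicate 3), Fam169b (-2.40 without those 2), Fam180a (-2.43 without PDGF-BB replicate 1) and, by limma on log2(FPKM + 1), Sned1 (-2.36), Scin (-3.16), Kazn (-2.05), Fam169b (-1.70) and Kng1 (-1.39). In the second they were Fam180a (2.50 without PDGF-BB replicate 1) and, by limma on log2(FPKM + 1), Sned1 (1.5), Kazn (1.25), Fam169b (1.19) and Kng1 (0.56); the pseudocount by construction shrinks changes of low genes. With PDGF-BB+PTUPB against Control they kept direction and call in 132 of 144, 9 became called, and 3 changed sign: Akr1c15 to 0.11 without Control replicate 2, and to 0.11 without Control replicate 2 and PDGF-BB replicate 3, and Fam180a to -0.0066 without PDGF-BB+PTUPB replicate 3. With 1 library left out in turn, the range was -0.87 to 0.11 for Akr1c15 and -0.0066 to 0.14 for Fam180a. Of the 8 genes, 1 was called in that comparison, against 4 by DESeq2, 2 with the replicate block, 5 without both Control replicate 2 and PDGF-BB replicate 3, and 1 to 2 when 1 library was left out (2 without PDGF-BB replicate 3, Scin and Fam169b). Called genes in that comparison numbered 247, against 441 by DESeq2 and 1345 without those 2 libraries. Leaving out 1 library gave 93 to 340, with 126 without Control replicate 3, 164 without PDGF-BB replicate 1, 94 and 93 without PDGF-BB+PTUPB replicates 2 and 3. With PDGF-BB against Control, 3714 genes were called and 2770 to 3902 with 1 library left out. With PDGF-BB+PTUPB against PDGF-BB, 2048 were called and 1002 to 2463, with 1002, 1109 and 1331 without PDGF-BB+PTUPB replicates 1, 2 and 3. Scaling by library totals moved the split of higher and lower calls from 1942 and 1772 to 2410 and 1350 with PDGF-BB against Control, and from 927 and 1121 to 759 and 1414 with PDGF-BB+PTUPB against PDGF-BB; limma on log2(FPKM + 1) gave 2427 and 1283, and 728 and 1419. The cause of these changes was not tested. Correlations of same-numbered deviations ran from -0.238 to 0.177. As deviations also followed gene length, these values do not settle whether replicate numbers pair the samples. With the replicate block, 3294, 1602 and 168 genes were called in the 3 comparisons in the order above, PDGF-BB+PTUPB against Control last, and Kazn joined Scin among the 8 (edgeR adjusted p = 0.0308). Counts of calls in the gene lists stayed within 1.5 times in 125, 103 and 110 of 126 cases in the same order. Depth limits Kng1 most, which had 14 to 17 counts in each PDGF-BB library, the fewest of the 8 genes.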
